A study of Homo sapiens with 6 samples.

Results

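The 45 genes described here are immediate early genes and feedback regulators of MAP kinase signalling, taken by gene symbol from a list of names. All 45 were found among the 20115 genes of the authors' deposited table, and 8 of them also had a row among its 2014 DoG (downstream of gene) regions, where transcription runs on beyond the end of a gene. RNA came from MDA-MB-231 cells, a human triple-negative breast cancer line, in 2 groups of 3 libraries. The knockdown cells carried lentiviral hairpins against UBE3D that doxycycline switched on, and the control cells are labelled only as control, so the hairpin they carried and whether they received doxycycline are not known. UBE3D is a ubiquitin ligase gene, and the series title concerns CPSF73, the endonuclease that cuts pre-mRNA at its 3' end. All cells were grown with 10% fetal bovine serum, and the labels mark each sample as pooled.

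Immediate early genes are switched on by growth factors, serum or stress within minutes and without new protein synthesis. Ligand-bound receptors activate RAS, which drives the kinases RAF, MEK and ERK in turn, and ERK acts on factors bound at the promoters of these genes, among them serum response factor with its ETS partners. Many of the products are transcription factors, such as the FOS, JUN and EGR proteins, and a second set feeds back on the cascade: dual specificity phosphatases (DUSPs) remove the phosphates that activate MAP kinases, and Sprouty and SPRED proteins act at the level of RAS and RAF. In MDA-MB-231 cells the cascade is active without added growth factor. Immediate early transcripts are short-lived, in many cases through AU-rich elements in the 3' untranslated region (UTR) that ZFP36 family proteins bind.

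The EGR1 promoter is shown because EGR1 had the largest fall of the 45 genes and because its 300 bases hold 2 serum response elements, in capitals. It covers chr5:138465229-138465528 on the plus strand of GRCh38.p14 (RefSeq), from 250 bases before the start to 50 after it.
EGR1 promoter: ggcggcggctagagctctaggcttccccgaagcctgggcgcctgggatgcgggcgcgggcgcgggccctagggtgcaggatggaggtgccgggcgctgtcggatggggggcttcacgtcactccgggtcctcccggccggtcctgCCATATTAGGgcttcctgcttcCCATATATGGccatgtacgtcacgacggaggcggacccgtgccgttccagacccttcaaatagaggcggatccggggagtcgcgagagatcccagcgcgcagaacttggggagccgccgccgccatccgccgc
The capitals lie at bases -105 to -96 and -83 to -74, counted from the start site.

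Windows of 30 bases from other promoters show serum response elements in genes of the list that did not pass the test, and a cyclic AMP response element, TGACGTCA, in genes of both directions. Capitals mark the motif, and each window is read along the gene's own strand in GRCh38.p14 (RefSeq).
SRF, chr6:43171229-43171258 (+): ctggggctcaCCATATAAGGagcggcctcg
EGR2, chr10:62816418-62816447 (-): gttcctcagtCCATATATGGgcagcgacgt
DUSP1, chr5:172771302-172771331 (-): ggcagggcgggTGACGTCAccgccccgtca
DUSP8, chr11:1572371-1572400 (-): ccgggctccgcTGACGTCAcctgcccccga
ZFP36L1, chr14:68793450-68793479 (-): agtggaatgagTGACGTCAcagccgcgctc
JUND, chr19:18281804-18281833 (-): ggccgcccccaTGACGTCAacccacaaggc

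Further windows come from 3' UTRs (GENCODE 29, GRCh38), read along the gene's strand, with the core ATTTA of AU-rich elements in capitals. IER3, ZFP36L1 and PHLDA1 fell, DUSP1 rose and FOS did not pass the test.
IER3, chr6:30743649-30743678 (-): ctaattaatATTTAtatgtATTTAtgtacg
ZFP36L1, chr14:68788342-68788371 (-): ATTTAacttatcaaaacgtATTTAttgcca
PHLDA1, chr12:76029784-76029813 (-): ATTTAtgattATTTAttagtttttttttaa
DUSP1, chr5:172768639-172768668 (-): ctggtccttATTTATTTAacttcacccgag
FOS, chr14:75282063-75282092 (+): ttttaATTTATTTAttaagatggattctca

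Values per library were not analysed here, so no spread per group can be shown. Each row of the authors' deposited table gives a mean normalized count over all 6 libraries, a log2 fold change of knockdown over control, its standard error (SE) and an adjusted p-value from the authors' DESeq2 step. These log2 fold changes are shrunken toward 0, so they understate changes, most of all for genes of low count. A gene was counted as higher or lower at an adjusted p under 0.05, adjusted over the whole table. Whether the libraries are separate cultures is not labelled, and the p-values therefore cover the spread among these libraries, which may be technical. UBE3D itself had a log2 fold change of -0.80 (adjusted p = 0.00632, SE 0.37) at a low mean of 36.7 in the authors' deposited table. CPSF3, which encodes CPSF73, had -0.12 (adjusted p = 0.464, SE 0.13) at a mean of 559 in the authors' deposited table. Of 5 genes that mark this mesenchymal line, VIM, CD44, AXL, ZEB1 and MSN, mean normalized counts ran from 620 to 11376 in the authors' deposited table, and of 5 luminal markers (ESR1, PGR, CDH1, GATA3 and FOXA1) from 9.74 to 80.0. Of the first 5, 4 fell, and CDH1 of the second rose by 1.06, per the authors' deposited table. Of 6 fibroblast genes, with means from 14.2 to 168, LUM rose by 1.42 and PDGFRB by 0.96, and none of 4 blood and 3 endothelial genes passed in the authors' deposited table. The part of these markers in the results below was not tested. None of 6 heat shock genes chosen as signs of handling (HSPA1A, HSPA1B, DNAJB1, HSPB1, HSPH1 and BAG3) passed the threshold in the authors' deposited table, with log2 fold changes from -0.29 to 0.24.

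Immediate early and MAPK feedback genes fell more often than they rose in the knockdown. Of the 45, 15 fell and 5 rose. In these bulk libraries, fewer expressing cells and less RNA per cell cannot be told apart. Over all genes, 7.93% fell and 4.62% rose. The median log2 fold change of the 45 was -0.15, against -0.03 over all genes, and 33 of the 45 lay below 0. Of all 20115 genes, 11416 lay below 0. Among the 33 whose mean reached 100 normalized counts, 14 fell and 3 rose, where 12.4% of all genes of that abundance fell and 7.45% rose. The falls were moderate: EGR1 alone fell more than 2-fold, and DUSP2 and DUSP8 rose more than 2-fold. The falls ran from -0.23 (NF1) to -1.54 (EGR1) and the rises from 0.30 (DUSP1) to 1.65 (DUSP2) on the log2 scale. With the deposited shrunken change and SE put to a Wald test, 9 of the 15 falls and 2 of the 5 rises still passed. Over all genes, 4.11% fell and 1.94% rose in that test. These 45 genes were not chosen blind to the results, so the counts describe them and are no test of the list.

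**Figure D1:**
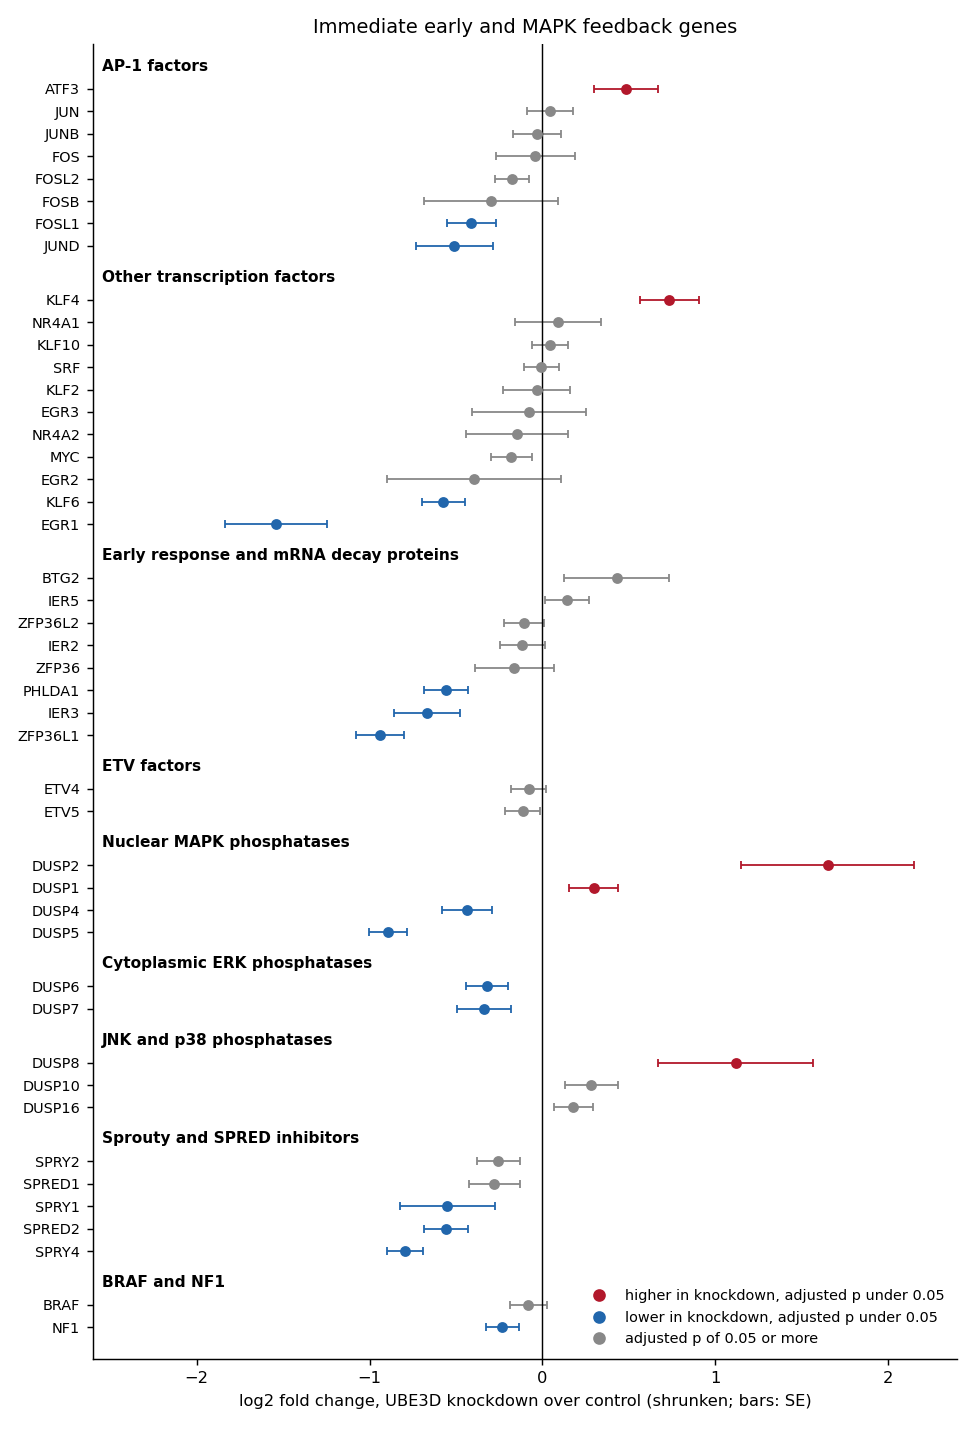
Log2 fold change of the 45 genes, UBE3D knockdown over control, by role, with SE as bars, from the authors' deposited table. DUSP4, DUSP5, DUSP6 and DUSP7 lie below 0 and the other 5 phosphatases above it, while EGR1 at -1.54 is the lowest point and DUSP2 at 1.65 the highest.

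The AP-1 factors are proteins of the FOS, JUN and ATF families that bind DNA in pairs. Of 8 genes, FOSL1 and JUND fell, ATF3 rose and 5 did not pass, where 7.93% of all genes fell and 4.62% rose. Counts this small are a description. FOSL1 encodes FRA-1, the FOS family protein known for its role in invasive, mesenchymal breast cancer cells. Its log2 fold change was -0.41 (adjusted p = 0.00329, SE 0.14) at a mean count of 1193 in the authors' deposited table, which is 1.33-fold lower. JUND, which encodes a JUN protein that pairs with FOS family members, had -0.51 (adjusted p = 0.0109, SE 0.22) at a mean of 795 in the authors' deposited table. ATF3, a stress-induced factor, had 0.48 (adjusted p = 0.00571, SE 0.19) at a mean of 120 in the authors' deposited table. The calls of all 3 were lost in the Wald test on shrunken changes. Among the 5 that did not pass, FOSL2 had -0.18 (adjusted p = 0.15, SE 0.10) and JUN 0.05 (adjusted p = 0.824, SE 0.13) in the authors' deposited table. FOS itself, with a mean of 29.2, had -0.04 (adjusted p = 0.863, SE 0.23), JUNB -0.03 (adjusted p = 0.884, SE 0.14), and FOSB -0.30 (adjusted p = 0.217, SE 0.39), per the authors' deposited table.

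Levels between genes were compared as mean normalized counts per kb of exon, from exon lengths in GENCODE 29. FOSL1, at 632 per kb, was at the 97.6th percentile of genes, above JUND at 427, JUN at 268 and FOSL2 at 244. FOS was at 9.02 and FOSB at 8.19 per kb, below the 32nd percentile. These figures pool knockdown and control libraries and rest on annotated lengths that the authors' annotation may not share. Across the 45 genes IER3 was the highest at 2822 per kb, followed by FOSL1, JUND, PHLDA1 (381), KLF6 (356) and DUSP5 (337). All 6 of these fell, a cut seen in the values. Next by level came JUN, DUSP4, DUSP10, FOSL2 and IER5, of which DUSP4 fell and the others did not pass. JUN, DUSP10 and IER5 had log2 fold changes above 0, at 0.05, 0.28 and 0.14. The 5 genes that rose ranked 20 (DUSP1), 27 (KLF4), 31 (ATF3), 38 (DUSP2) and 39 (DUSP8) of the 45. At the low end were EGR3 (3.03), NR4A1 (4.54), NR4A2 (6.20) and EGR2 (6.80 per kb), none of which passed. EGR2 had a log2 fold change of -0.40 with an SE of 0.50, so a change of that size was not resolved here. DUSP2, with an SE of 0.50 as well, passed at 1.65.

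**Figure D2:**
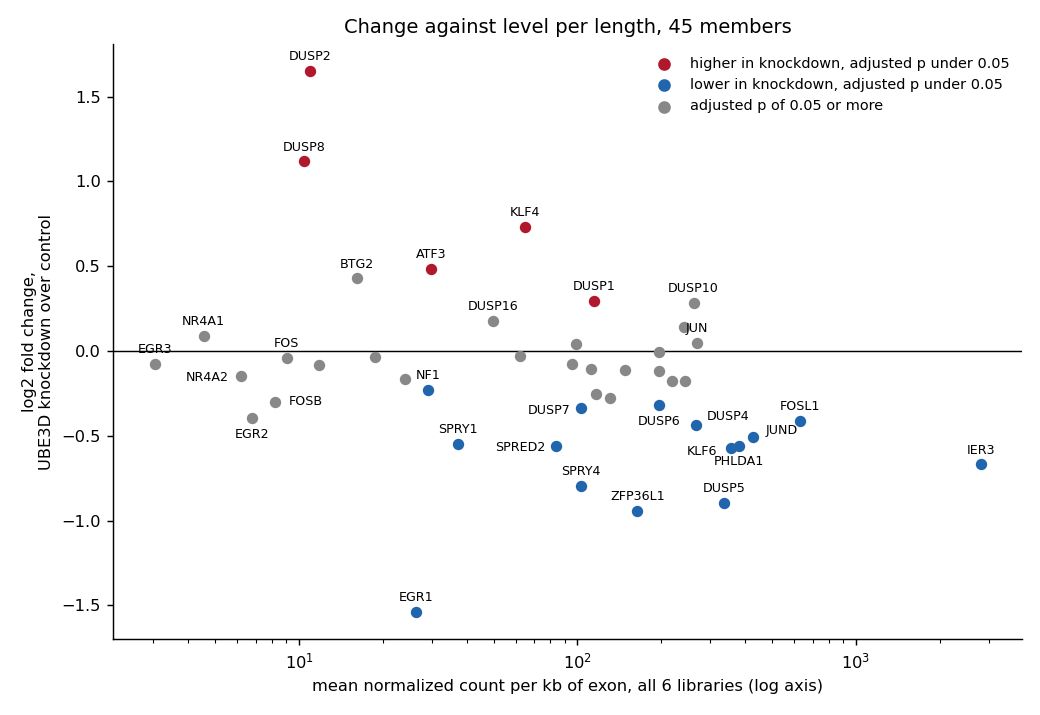
Log2 fold change, knockdown over control, against the mean normalized count per kb of exon over all 6 libraries (log axis), 1 point for each of the 45 genes. The 6 genes of highest level, from DUSP5 at 337 to IER3 at 2822 per kb, all lie below 0, and the 5 genes that rose (red; blue for those that fell, grey for the rest) lie at 115 per kb or less. Of the next genes by level, DUSP4 (267 per kb) lies below 0, and JUN (268) and DUSP10 (261) lie above it.

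Among the other transcription factors, EGR1 and KLF6 fell, KLF4 rose and 8 of 11 did not pass. The shares over all genes were 7.93% lowered and 4.62% raised, so these small counts are a description. EGR1 encodes a zinc finger factor that ERK induces through serum response elements like those printed above. Its log2 fold change was -1.54 (adjusted p = 1.95e-07, SE 0.30) in the authors' deposited table, 2.91-fold lower, at a mean of 82.8. The gene lies at chr5:138465490-138469315 on the plus strand (GENCODE 29, GRCh38). KLF6, a Kruppel-like factor, had -0.57 (adjusted p = 5.02e-06, SE 0.12) at a mean of 2183 in the authors' deposited table. KLF4, a Kruppel-like factor known for growth arrest and for stem cell reprogramming, went the other way with 0.73 (adjusted p = 1.55e-05, SE 0.17) at a mean of 238 in the authors' deposited table. SRF, the factor that binds serum response elements, had a value near 0 at -0.01 (adjusted p = 0.97, SE 0.10) in the authors' deposited table. MYC, which drives growth and proliferation genes, had -0.18 (adjusted p = 0.218, SE 0.12) in the authors' deposited table. The other 6, EGR2, EGR3, KLF2, KLF10, NR4A1 and NR4A2, ran from -0.40 to 0.09, and all but KLF10 had means from 14.7 to 37.9.

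Of the early response and mRNA decay genes, 3 of 8 fell and none rose, where 7.93% of all genes fell and 4.62% rose. Among only 8 genes, the absence of a rise lies near that share. ZFP36L1, a protein that binds AU-rich elements and speeds decay of the mRNA, fell most, with a log2 fold change of -0.94 (adjusted p = 4.25e-11, SE 0.14), 1.92-fold lower, in the authors' deposited table. Its relatives did not pass: ZFP36L2 had -0.11 (adjusted p = 0.509, SE 0.12) and ZFP36 -0.16 (adjusted p = 0.432, SE 0.23) in the authors' deposited table. IER3, a survival-associated early response gene, had -0.67 (adjusted p = 0.0003, SE 0.19) at a mean of 3826, the highest count of the 45, per the authors' deposited table. PHLDA1, an ERK-responsive gene used to gauge MAPK output in tumours, had -0.56 (adjusted p = 1.19e-05, SE 0.13) at a mean of 3078 in the authors' deposited table. IER5 (0.14, adjusted p = 0.372, SE 0.13) and IER2 (-0.12, adjusted p = 0.494, SE 0.13) had small values in the authors' deposited table. BTG2, an antiproliferative gene, had 0.43 (adjusted p = 0.0743, SE 0.30), just short of the threshold in the authors' deposited table. The ETV factors ETV4 and ETV5, ETS family genes that ERK signalling induces, did not pass, at -0.08 (adjusted p = 0.61, SE 0.10) and -0.11 (adjusted p = 0.424, SE 0.10) in the authors' deposited table.

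The MAPK phosphatases went in both directions, with 4 of 9 lowered, 3 raised and 2 not past. For comparison, 7.93% of all genes fell and 4.62% rose. Of genes with means of at least 100, which DUSP2 and DUSP8 did not reach, 12.4% fell and 7.45% rose. The 4 nuclear, inducible enzymes were divided. DUSP5, which acts on ERK alone among MAP kinases, fell by 0.89 (adjusted p = 2.98e-15, SE 0.11) at a mean of 882, 1.86-fold lower, in the authors' deposited table. It lies at chr10:110497838-110511544 on the plus strand, and DUSP2 at chr2:96143166-96145440 on the minus strand. DUSP4, which acts on ERK and on JNK, fell by 0.44 (adjusted p = 0.0022, SE 0.15) at a mean of 1936 in the authors' deposited table. DUSP2, an ERK and p38 phosphatase best known from lymphocytes, rose by 1.65 (adjusted p = 0.000131, SE 0.50), 3.14-fold, at a low mean of 21.2 in the authors' deposited table. DUSP1, which favours p38 and JNK over ERK, had 0.30 (adjusted p = 0.0452, SE 0.14) at a mean of 232 in the authors' deposited table, the called gene closest to the threshold.

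Both cytoplasmic phosphatases that favour ERK fell. DUSP6, the best known feedback inhibitor of ERK, had -0.32 (adjusted p = 0.0106, SE 0.12) at a mean of 912 in the authors' deposited table. DUSP7 had -0.34 (adjusted p = 0.0302, SE 0.16) at a mean of 584 in the authors' deposited table. Of the 3 phosphatases that favour JNK and p38, DUSP8 rose by 1.12 (adjusted p = 0.00184, SE 0.45) at a mean of 48.2 in the authors' deposited table, 2.17-fold. DUSP10 had 0.28 (adjusted p = 0.0722, SE 0.15) and DUSP16 0.18 (adjusted p = 0.191, SE 0.11), both positive and not past that threshold in the authors' deposited table. So DUSP4, DUSP5, DUSP6 and DUSP7 lay between -0.89 and -0.32, and the other 5 between 0.18 and 1.65. This division was seen in the values and was not tested. The calls of DUSP1, DUSP6, DUSP7 and DUSP8 were lost in the Wald test on shrunken changes, where those of DUSP2, DUSP4 and DUSP5 were kept. With changes also shifted to a median of 0, the DUSP4 call was lost (adjusted p = 0.0729).

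All 5 Sprouty and SPRED genes lay below 0, and 3 of them fell. Their means were at least 100, and of all 9743 genes of that abundance 4850 lay below 0 and 12.4% fell. SPRY4, a Sprouty protein that ERK signalling induces and that restrains it, had a log2 fold change of -0.80 (adjusted p = 3.11e-13, SE 0.11) at a mean of 674 in the authors' deposited table, 1.74-fold lower. SPRED2, a partner of neurofibromin at the membrane, had -0.56 (adjusted p = 1.59e-05, SE 0.13) at a mean of 433 in the authors' deposited table. SPRY1 had -0.55 (adjusted p = 0.0181, SE 0.28) at a mean of 148 in the authors' deposited table, a call lost in the Wald test on shrunken changes. SPRY2 (-0.26, adjusted p = 0.0619, SE 0.12) and SPRED1 (-0.28, adjusted p = 0.0736, SE 0.15) were just outside the threshold in the authors' deposited table, as DUSP10 and BTG2 were, while NF1 and DUSP1 were just inside it. SPRY4-IT1, a transcript named for an intron of SPRY4 and looked up after the values were seen, had -0.83 (adjusted p = 0.00246) in the authors' deposited table.

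Of the 2 regulators of RAS signalling proper in the list, NF1 fell and BRAF did not pass. Both had means of at least 100, where 12.4% of all genes fell. NF1 encodes neurofibromin, which speeds the inactivation of RAS, and had -0.23 (adjusted p = 0.0394, SE 0.10) at a mean of 788 in the authors' deposited table. This fall of 1.17-fold was the smallest called change of the 45, and its call was lost in the same Wald test. BRAF, the kinase directly below RAS, had -0.08 (adjusted p = 0.615, SE 0.11) at a mean of 276 in the authors' deposited table. Genes of the opposite strand lie within or overlap 6 of the 45, and the sources do not say whether the authors counted reads by strand. For NF1 they are EVI2A (-0.07), EVI2B (0.06) and OMG (-0.06), and none of these passed in the authors' deposited table. DGKG, a gene of the same strand that overlaps ETV5, fell by 1.21 (adjusted p = 0.00446) at a mean of 45.1 in the authors' deposited table.

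Readthrough regions of 8 genes were listed, and 37 of the 45 had no row of their own name. All 8 lay below 0, with 3 lowered and none raised, where 16.1% of all 2014 regions fell and 12.7% rose. Since all 8 lay below 0, no other threshold or test could have called one of them raised. The median log2 fold change of the 8 was -0.26, against -0.01 over all regions. The region past DUSP5 fell by 0.60 (adjusted p = 0.00347, SE 0.23) beside a fall of 0.89 in its gene, per the authors' deposited table. The region past FOSL1 fell by 0.45 (adjusted p = 0.00903, SE 0.19) and its gene by 0.41 in the authors' deposited table, a difference of -0.04 with an error of 0.23. Each error of a difference here is the root of the summed squared SEs of region and gene. It treats region and gene as independent, though both come from the same libraries, so it is no test. Within 10 kb past the end of FOSL1 lie CCDC85B and CTSW on the opposite strand and FIBP on the same strand, none of which passed in the authors' deposited table. The region past FOSL2 fell by 0.51 (adjusted p = 0.000116, SE 0.13), while its gene had -0.18 and did not pass in the authors' deposited table. With shrunken values in both tables the difference was -0.33 with an error of 0.16, given as a description. Under the Wald test on shrunken changes 1 of the 3 regions, that of FOSL2, was still called, where 11.2% of all regions fell.

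The other 5 regions did not pass. ZFP36L1 stood apart in the other direction: its region had -0.04 (adjusted p = 0.893, SE 0.24) beside -0.94 for its gene in the authors' deposited table, a difference of 0.90 with an error of 0.28. KLF6 had -0.15 (adjusted p = 0.479, SE 0.22) for the region and -0.57 for the gene in the authors' deposited table, a difference of 0.43 with an error of 0.25. IER5 had -0.23 (adjusted p = 0.105, SE 0.13) for the region and 0.14 for the gene in the authors' deposited table, a difference of -0.37 with an error of 0.18. DUSP4 and MYC regions had -0.29 (adjusted p = 0.149, SE 0.23) and -0.08 (adjusted p = 0.72, SE 0.21) in the authors' deposited table. The regions of ZFP36L1, KLF6, DUSP4 and MYC had means from 53.7 to 94.5 normalized counts, so their SE of 0.21 to 0.24 hides moderate changes. Outside the rule for names, the merged region SPRY4&SPRY4-IT1, looked up after values were seen, had -0.77 (adjusted p = 8.67e-05, SE 0.21) in the authors' deposited table.

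**Figure D3:**
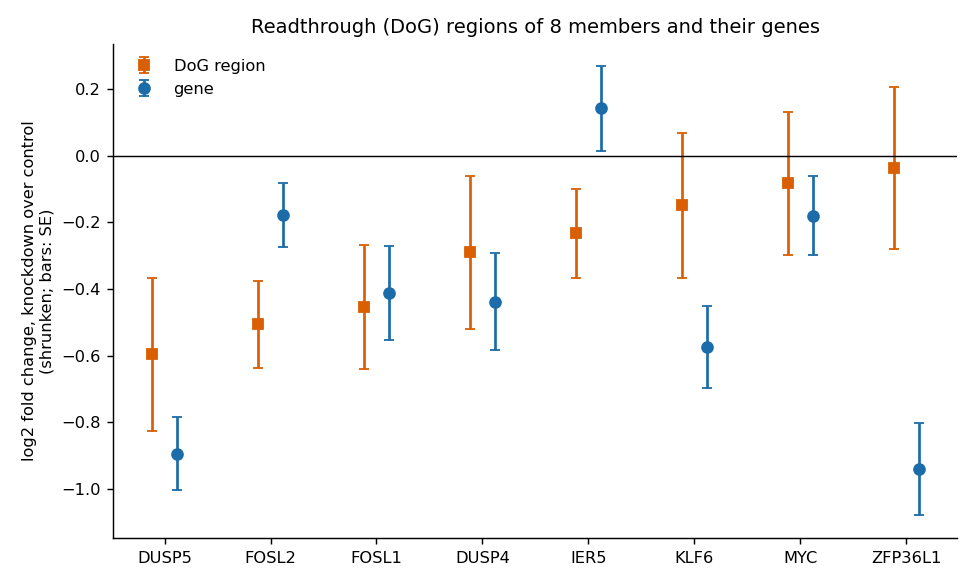
Log2 fold change, knockdown over control, of the 8 DoG regions (squares) and of their genes (circles), with SE as bars, from the authors' deposited table. All squares lie below 0, the FOSL2 region (-0.51) lies below its gene (-0.18) and the ZFP36L1 region (-0.04) above its gene (-0.94).

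The surrounding pathway was read from 9 lists of 128 other genes. Of these, 29 (22.7%) fell and 7 (5.47%) rose in the authors' deposited table, where 7.93% of all genes fell and 4.62% rose, so the raised share was near that of all genes. In the RAS-ERK cascade 6 of 25 fell and 3 rose. Every gene of that list had a mean of at least 100, where 12.4% of all genes fell and 7.45% rose. The adaptor gene SHC1 had -0.50 (adjusted p = 2.17e-05, SE 0.12) in the authors' deposited table. NRAS rose by 0.80 (adjusted p = 3.93e-07, SE 0.15), and RASAL2, a RAS GTPase-activating protein gene, by 0.80 (adjusted p = 8.74e-18, SE 0.09), per the authors' deposited table. MAP2K1, which encodes the ERK kinase MEK1, had -0.46 (adjusted p = 0.000312) and the RAS inhibitor gene RASA1 -0.58 (adjusted p = 2.42e-05) in the authors' deposited table, both named outside the rule. Of 16 JNK and p38 kinase genes, MAPK13, which encodes p38 delta, fell by 1.39 (adjusted p = 3.24e-49, SE 0.09), MAPKAPK2 fell by 0.70 (adjusted p = 1.93e-08) and MAP3K1 rose by 0.38 (adjusted p = 0.00213) in the authors' deposited table. Of 9 other inhibitors 2 fell: ERRFI1, a feedback inhibitor of the EGF receptor, by 1.29 (adjusted p = 6.45e-19, SE 0.14) and SH2B3 by 0.55 (adjusted p = 9.38e-07) in the authors' deposited table. Of 11 other dual specificity phosphatase genes DUSP3 alone passed, with 0.58 (adjusted p = 1.67e-06, SE 0.12) in the authors' deposited table.

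Next along the pathway come the nuclear factors on which ERK acts. Of 10 SRF cofactors and ETS factors, all with means of at least 100, 5 fell and none rose, where 12.4% of all genes of that abundance fell and 7.45% rose. The 5 were led by ETV1 (-0.72, adjusted p = 1.3e-06), the SRF partner ELK3 (-0.76, adjusted p = 2.48e-06), ETS1 (-0.46, adjusted p = 0.000451) and the SRF cofactor gene MKL2 (-0.32, adjusted p = 0.00179) in the authors' deposited table. MAFG (-0.52, adjusted p = 4.43e-05) was the 1 of 10 CREB genes and AP-1 partners past that threshold in the authors' deposited table. That share is near the 7.93% of all genes that fell. Of 27 other growth factor induced genes, 6 fell and 1 rose, where 7.93% of all genes fell and 4.62% rose. Their raised share of 3.70% was near that of all genes. The EGF receptor ligand genes EREG (-1.23, adjusted p = 7.89e-11, SE 0.19) and AREG (-0.92, adjusted p = 1.56e-10, SE 0.14), LIF (-1.03, adjusted p = 4.31e-10, SE 0.16) and CTGF (-0.65, adjusted p = 1.13e-06, SE 0.13) led the falls in the authors' deposited table. Of 11 output genes of ERK in tumours 4 fell and 1 rose, beside the same shares of all genes. Among them MMP1 (-3.56, adjusted p = 7.13e-10, SE 0.70, mean 44.1) and SPHK1 (-0.99, adjusted p = 6.18e-06) were lower and EPHA4 (0.61, adjusted p = 0.00266) was higher in the authors' deposited table. The EPHA4 call was lost in the Wald test on shrunken changes (adjusted p = 0.0831, and 0.0626 with a shift to a median of 0). Of 9 mRNA decay partners, KHSRP, which also binds AU-rich elements, fell by 0.79 (adjusted p = 2.61e-07, SE 0.15), BTG1 by 0.46 and TOB2 by 0.52 in the authors' deposited table. The TOB2 call was lost in the shifted Wald test (adjusted p = 0.0527).

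**Figure D4:**
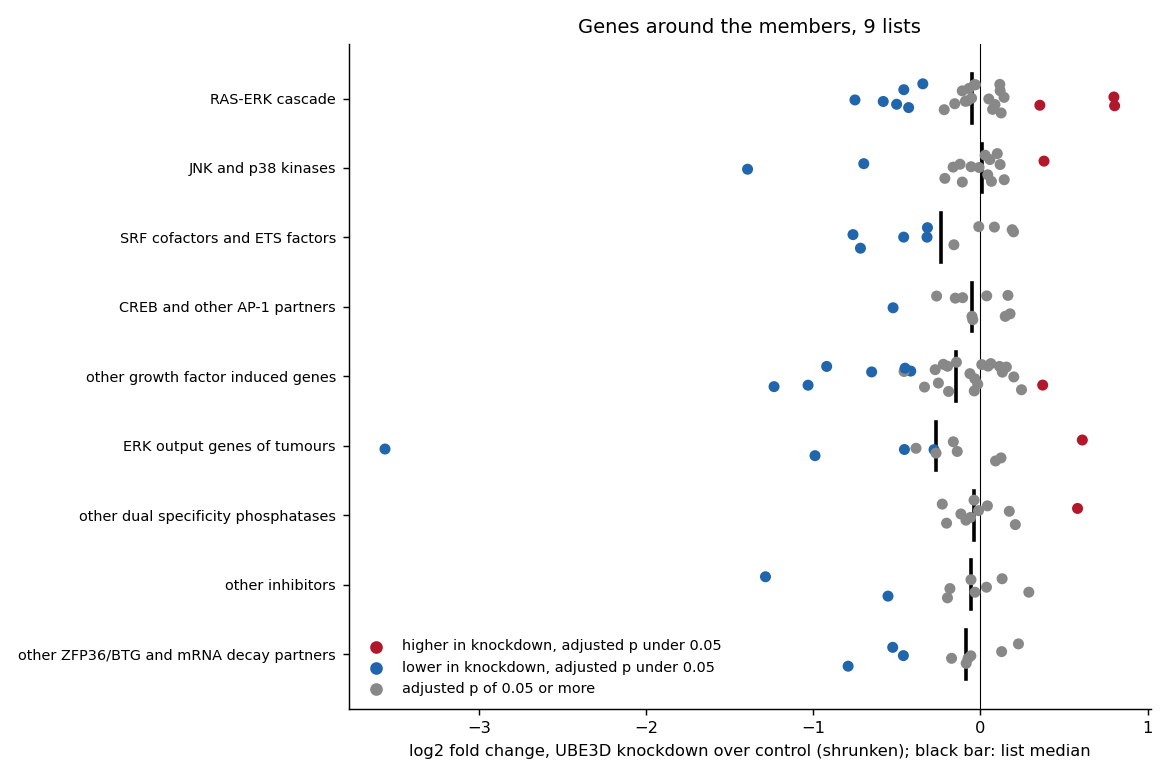
Log2 fold change, knockdown over control, of 128 genes around the 45, 1 point a gene and 1 row a list, with the list median as a black bar, from the authors' deposited table. The medians run from -0.27 (ERK output genes of tumours) to 0.01 (JNK and p38 kinases), and MMP1 at -3.56 is the lowest point.

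Sequence features of the 45 genes were searched in promoters of 300 bases and in 3' UTRs. RefSeq promoters were matched for 34 of the 45 genes, as 45 promoters, since some genes have several starts. FOSL1, EGR3, IER3, MYC, KLF10, NR4A2, DUSP4, DUSP5, ETV4, ETV5 and ZFP36L2 had no entry. The serum response element, searched on both strands, was in 3 of the 45 promoters, those of EGR1, EGR2 and SRF, and in 1.29% of all 35116 promoters (1.11% for genes with means of 100 or more). EGR1 fell and the other two did not pass. TGACGTCA was in 5 of the 45 promoters, against 1.85% of all promoters and 3.03% for genes with means of 100 or more. Of these genes DUSP1 and DUSP8 rose, and ZFP36L1, JUND and NF1 fell. TGANTCA, the AP-1 word, was in 2 of the 45 promoters, those of FOSL2 and SPRED2, against 7.71% of all promoters and 4.92% for genes of that abundance. GCGNGGGCG, the EGR word, was in 14 of the 45 promoters, against 9.43% of all promoters and 15.3% for genes of that abundance. SPRY4, SPRY1, KLF6, NF1, ZFP36L1 and EGR1 among these fell, DUSP2 and KLF4 rose and 6 did not pass. A match of letters is a description, and no binding was measured.

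In the 3' UTRs, TATTTAT, a word that holds ATTTA, was found in 30 of the 45 genes, and in 3463 of 9104 genes whose mean was at least 100. It was in 11 of the 15 that fell, 4 of the 5 that rose and 15 of the 25 that did not pass, so it was present in each class. Earlier work on these data found another 3' UTR word, GATTGAA, in many lowered genes. It was in 317 of the 1153 lowered genes of that abundance, 27.5%, in 8.16% of the raised ones and in 11.3% of all. Of the 45 genes 4 hold it, DUSP4, FOSL2, BRAF and IER5, and DUSP4 alone of these fell. Without the 4 genes, 14 of 41 fell and 5 rose. Among the 128 genes of the surrounding lists, 3 of the 29 that fell hold GATTGAA, as does 1 that rose. Of the 125 list genes with a 3' UTR here, 17 hold it. The hairpins' sequences were not analysed here, so a match of the word to them was not tested.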

How the data were processed

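Stranded libraries were made by random priming of rRNA-depleted total RNA and read as 75-base pairs, per the labels' protocols. Tools named in the submitters' processing notes are STAR 2.5.2b, cutadapt 1.8.1 and DESeq2, with build hg38. The way reads were counted, and DoG regions called, is not given in the sources used here. Tables of 1 comparison were deposited by the authors, and values of single libraries were not analysed here. Each row holds, per the file headers, the mean normalized count (a signal averaged over libraries), the log2 fold change with its SE, and the p-value, raw and adjusted. Recomputing the Benjamini-Hochberg adjustment over each deposited table gave its adjusted p-values. In 20112 of 20112 gene rows compared, the deposited log2 change divided by its SE was smaller than its p-value implies, which marks shrunken changes. The lowest mean is 7.74, and depth per library is unknown.

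The 45 genes and the lists around them were chosen with earlier results of these data known, and roles were assigned after values were seen. The rule named every gene past the threshold, the 2 of highest mean in each role otherwise, and up to 4 genes per surrounding list, of which a few are not reported here. Alternatives were other thresholds, minimum means of 50 and 100, and Wald tests on the shrunken changes, as deposited or shifted to a median of 0. Symbols matched GENCODE 29 for 18409 genes. The longest 3' UTR of at least 50 bases was used. Computation ran in Python 3.11.15 (scipy 1.17.1, pandas 2.3.3, numpy 2.4.6), and its steps were tested on simulated data.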

Additional observations from a re-analysis of the deposited data

How the results depend on the processing

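Of the 20 called genes, 10 kept their direction and call in every alternative that could be run on them (DUSP2, DUSP5, EGR1, IER3, KLF4, KLF6, PHLDA1, SPRED2, SPRY4 and ZFP36L1). DUSP2 (mean 21.2) entered neither minimum mean setting and EGR1 (mean 82.8) not that of 100, so they met fewer alternatives. Among the 45, raised genes numbered 3 of the 34 with a mean of at least 50, where 8.30% of all genes rose. They numbered 2 in the Wald test on shrunken changes, with or without a shift, where 1.94% and 2.19% of all genes rose without and with it. Lowered genes numbered 9 in that Wald test and 8 with the shift, where 4.11% and 3.66% of all genes fell. Surrounding genes raised numbered 4 of 128 in both. Lowered DoG regions numbered 1 of 8 in both, near the 11.2% and 10.5% of all regions that fell. The Wald tests lose calls by construction, since shrunken changes over SE lie below the quantile of the deposited p-value. Adjusting the deposited p-values again over genes with a mean of at least 100 alone added calls. There 16 of 33 fell and 4 rose, where 13.6% of all such genes fell and 8.71% rose. The added calls were SPRY2 (adjusted p = 0.0398), SPRED1 (0.0479) and DUSP10 (0.047). SRF turned to 0.0186 with the shift, which moves all changes by 0.03. Restricted to genes of mean 100 or more, the promoter shares were 1.11% for the serum response element, 3.03% for TGACGTCA, 4.92% for TGANTCA and 15.3% for GCGNGGGCG. Leaving out the GATTGAA genes was added after seeing the data. No paired analysis was possible because values per library were not analysed here, and for the same reason no replicate could be left out and no count model was run. Without depth per library, the SE is the measure of precision, and for genes of low mean such as EGR2, FOSB and EGR3 it is wide.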
